A study of Homo sapiens with 4 samples.

Results

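The genes described here are 10 genes of cellular iron handling: TFRC, STEAP3, SLC11A2, FTH1, FTL, NCOA4, SLC40A1, ACO1, IREB2 and HMOX1. They were taken by symbol from a count table of 40205 gene symbols, and all 10 were found and passed the filter on low counts. All libraries came from A549, an epithelial cell line of human lung adenocarcinoma, and the RNA was taken 24 h after a lipid reagent had carried siRNA (short RNA that triggers the breakdown of a matching transcript) into the cells. A negative-control siRNA was used for 2 libraries (control 1 and control 2), and siRNA against SBF2-AS1, a long non-coding RNA, for the other 2 (Knockdown-670 and Knockdown-732). The labels do not explain the numbers in the knockdown names, so whether they stand for 2 siRNAs or 1 is not known. Nothing says that the libraries of a group are separate cultures. The p-values therefore rest on a spread between libraries that may be only technical. In the knockdown that spread may also hold a difference between siRNAs. All 4 libraries share the cell line, the transfection and the harvest time.

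Cells take up iron as transferrin bound to the transferrin receptor TFRC. In the endosome the reductase STEAP3 turns ferric into ferrous iron, and the transporter SLC11A2 (DMT1) carries it to the cytosol. Spare iron is stored in ferritin, a shell of heavy chains (FTH1, which oxidise iron) and light chains (FTL, which help it to mineralise), and NCOA4 hands ferritin to the lysosome to release it. SLC40A1 (ferroportin) exports iron, and HMOX1 frees it from heme. The iron regulatory proteins IRP1 (ACO1, which is also the cytosolic aconitase) and IRP2 (IREB2) bind a hairpin in target mRNAs, the iron-responsive element, when iron is scarce. A hairpin in the 5′ UTR then blocks translation, and hairpins in the 3′ UTR protect TFRC mRNA from decay.

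The hairpins are shown because the regulatory proteins ACO1 and IREB2 bind hairpins of this kind. A search by letters can miss some of them and can match other sequences. Coding transcripts of GENCODE 29 were searched on the transcribed strand for CNNNNNCAGTGN followed by 5 bases that pair with the 5 bases after the leading C, with G-T pairs allowed. Such a match was found in 4 of the 10 genes, 7 matches in all, and in 240 of 19669 coding genes (1.22%) when 1 transcript was searched for each. It lay in the 5′ UTR in 0.107% of those genes and in the 3′ UTR in 0.529%. Capitals mark the hairpin loop, and sequences run 5′ to 3′ on the transcript.
FTH1: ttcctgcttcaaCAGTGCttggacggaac
FTL: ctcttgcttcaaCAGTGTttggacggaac
SLC40A1: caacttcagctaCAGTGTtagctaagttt
TFRC, in transcript order: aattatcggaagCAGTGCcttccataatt
TFRC: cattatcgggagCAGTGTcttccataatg
TFRC: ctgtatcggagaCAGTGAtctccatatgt
TFRC: aattatcgggaaCAGTGTttcccataatt

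In FTH1 (chr11:61967574-61967602, - strand, GRCh38) and FTL (chr19:48965335-48965363, + strand) the match lay in exon 1 of 4, in the 5′ UTR. In SLC40A1 (chr2:189580661-189580689, - strand) it lay in the 5′ UTR in exon 1 of 8, in 1 of 5 coding transcripts. All 4 matches of TFRC lay in the 3′ UTR within its last exon, exon 19, from chr3:196050979-196051007 to chr3:196050463-196050491 on the - strand. With 1 unpaired position allowed, which 9.69% of coding genes met, SLC11A2 also matched in the 3′ UTR within its last exon (chr12:50988269-50988297, - strand), as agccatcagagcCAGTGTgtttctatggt. ACO1 and IREB2 matched so as well, each in the 3′ UTR of 1 transcript. The SLC11A2 match was in 5 of its 18 coding transcripts, and counts per gene symbol do not separate transcripts with and without it. A match is a description of the letters and not a measured binding site.

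The knockdown was read from SBF2-AS1 before the iron genes. Its counts were 57 and 79 with control siRNA against 15 and 18 in Knockdown-670 and Knockdown-732 (log2 -1.94, SE 0.30, edgeR adjusted p = 3.19e-05). Libraries held 12149767 to 12938143 counts. All 8 A549 and epithelial markers were detected in every library, but their summed level was 11117 to 11573 CPM (counts scaled to one common library total) in the controls and 6336 to 6442 CPM in the knockdown. ALDH1A1 (5764 and 5090 CPM in the controls, against 2397 and 2636) and KRT18 made up most of that drop, while KRT19 was higher in the knockdown (68.8 and 63.0 against 126 and 136 CPM) and the CDH1 libraries of the groups overlapped. Of 9 erythroid markers, 6 had 0 counts in all libraries, HBA2, HBG1, HBG2, ALAS2 and AHSP among them, and the sums were 0.0773 to 0.236 CPM in the controls and 0.310 to 0.412 CPM in the knockdown. The 9 macrophage markers summed to 74.1 to 76.0 CPM in the controls and 173 to 190 CPM in the knockdown. Most of that was CD68, a lysosomal membrane protein, with a log2 fold change of 1.57; CD163 and AIF1 were at 0 in all libraries, and PTPRC had 1 count in 1 library. Hepatocyte markers (HAMP and APOA2 at 0) and fibroblast markers summed to at most 6.67 and 13.8 CPM in any library. The part of these shifts in the results below was not tested. In bulk RNA, fewer cells of a kind and less RNA per cell cannot be told apart.

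Of the 10 iron genes 6 rose, 1 fell and 3 did not reach the threshold of 0.05 on the adjusted p (edgeR, quasi-likelihood F test). STEAP3, FTH1 and HMOX1 rose most, by 0.97, 0.86 and 0.75 on the log2 scale; NCOA4, ACO1 and IREB2 rose by 0.30, 0.30 and 0.23. The exporter SLC40A1 fell by 1.08, and TFRC, FTL and SLC11A2 did not pass. Over all 16120 genes tested 46.3% passed, 23.5% higher and 22.8% lower (3785 and 3678 genes; 3243 and 4265 with scaling by library size only). The median log2 fold change was 0.26 over the 10 genes and -0.0024 over all genes tested. For 8 of the 10 genes the knockdown libraries were both above or both below the 2 controls, against 72.6% of all genes, so that share says little. CPM values below are after TMM scaling of the library sizes.

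**Figure D1:**
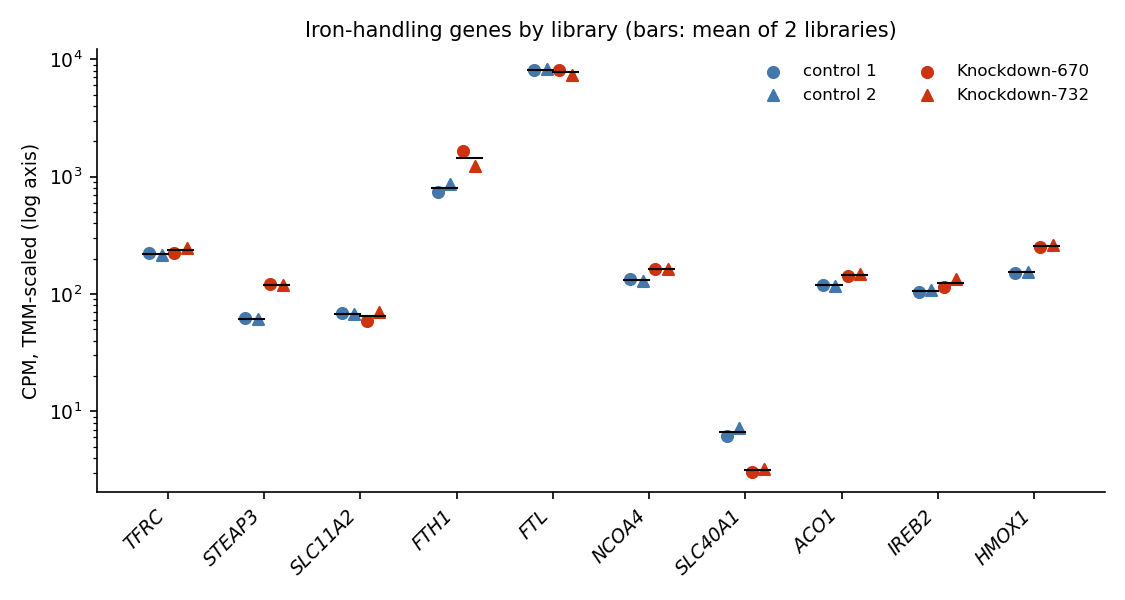
TMM-scaled CPM (log axis) of the 10 genes, grouped by role, in each control (blue) and knockdown (red) library, with bars at the mean of 2 libraries. FTL lies between 7325 and 8200 CPM, the knockdown points of STEAP3, FTH1 and HMOX1 stand above the controls, and those of SLC40A1 stand below.

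**Figure D2:**
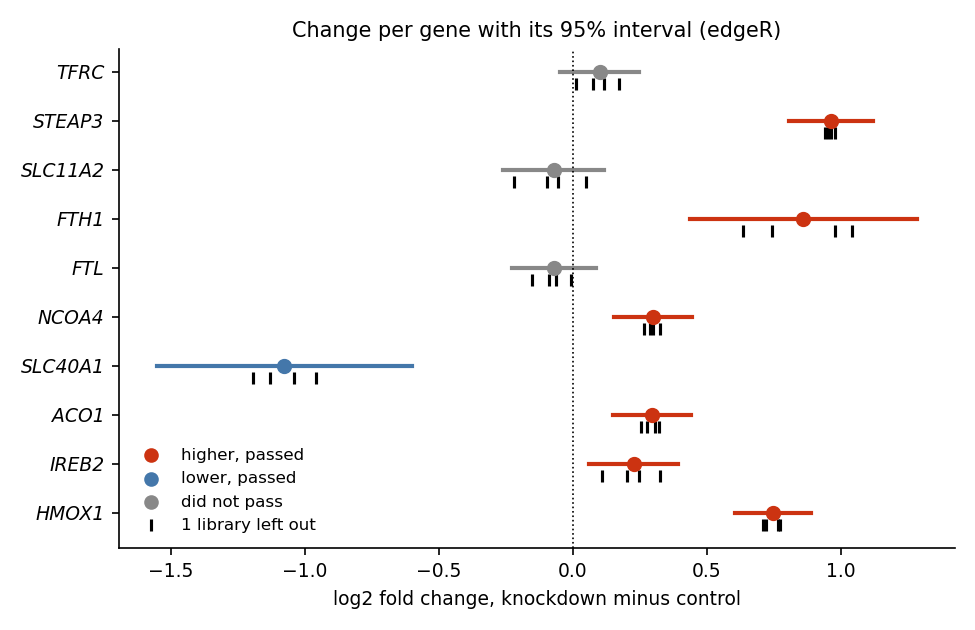
Log2 fold change (knockdown minus control) of each gene with its 95% interval from edgeR; ticks give the value with each of the 4 libraries left out in turn. The ticks of STEAP3, HMOX1, NCOA4 and ACO1 lie close together, those of FTH1 spread from 0.64 to 1.04, and those of SLC11A2 fall on both sides of 0.

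Levels between genes were compared as CPM per kb of the principal transcript. In the controls FTL stood highest, at 9259 ± 114 CPM per kb (SD, n = 2), above FTH1 at 649 ± 74.5, HMOX1 at 83.7 ± 1.83, NCOA4 at 57.0 ± 1.69 and TFRC at 43.0 ± 0.85. IREB2 (16.7 ± 0.369 CPM per kb) and SLC11A2 (16.3 ± 0.328) came next, and their libraries overlapped. ACO1 (15.8 ± 0.247) and STEAP3 (15.7 ± 0.266) followed, also with overlapping libraries. SLC40A1 was last at 1.93 ± 0.220 CPM per kb. In the knockdown STEAP3 went from rank 9 to rank 6, at 30.6 ± 0.290 CPM per kb, above ACO1, IREB2 and SLC11A2 with no overlap of their libraries. FTL, FTH1, HMOX1, NCOA4, TFRC, ACO1 and SLC40A1 kept their ranks.

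On the GRCh38 annotation the uptake genes lie at chr3:196027183-196082189 (TFRC, - strand), chr2:119223831-119265652 (STEAP3, + strand) and chr12:50979401-51028566 (SLC11A2, - strand). The storage genes lie at chr11:61959718-61967660 (FTH1, - strand), chr19:48965301-48966878 (FTL, + strand) and chr10:46005088-46030714 (NCOA4, - strand), and the exporter SLC40A1 at chr2:189560579-189583758 (- strand). ACO1 lies at chr9:32384603-32454769, IREB2 at chr15:78437431-78501456 and HMOX1 at chr22:35380361-35394214, all on the + strand. BEST1, on the opposite strand, overlaps exons of FTH1 and held 165 counts over the 4 libraries.

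Among the uptake genes, the endosomal reductase rose while the receptor and the transporter did not pass the test. STEAP3 was at 62.2 and 60.7 CPM in controls 1 and 2 and at 121 and 119 CPM in Knockdown-670 and Knockdown-732. The groups lay far apart, and the libraries of each differed by under 2 CPM. The fitted log2 change was 0.97 with an SE of 0.07 (edgeR adjusted p = 6.49e-09), 1.95-fold. GENCODE places an antisense gene, STEAP3-AS1, across STEAP3 exons. That symbol was not among those counted, and whether reads were counted by strand is not stated in the labels. Whether any of its reads were counted under STEAP3 was not tested.

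TFRC was at 223 and 217 CPM in the controls and at 223 and 248 CPM in Knockdown-670 and Knockdown-732. Knockdown-670 lay above control 1 by less than 1 CPM, and Knockdown-732 stood higher than the other libraries. The change on the log2 scale was 0.10 (95% interval -0.05 to 0.25, edgeR adjusted p = 0.263). SLC11A2 was at 69.0 and 67.1 CPM in the controls and at 58.9 and 70.6 CPM in the knockdown. Its knockdown libraries lay on either side of the controls, with a log2 fold change of -0.07 (95% interval -0.26 to 0.12, edgeR adjusted p = 0.549), or 0.05 without Knockdown-670.

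Of 14 further genes of uptake and iron reduction, 12 were tested, of which 3 rose and 4 fell (median log2 fold change -0.11). The other members of the STEAP family that were tested went the opposite way to STEAP3: STEAP1, which lacks a reductase domain of its own, went from 68.6 ± 5.16 to 28.7 ± 3.16 CPM (mean ± SD of 2 libraries each; log2 -1.25, edgeR adjusted p = 8.92e-09), and STEAP2 fell by 0.49 on the log2 scale. The reductase CYBRD1 rose by 0.53, and LCN2, a secreted protein that binds iron-carrying siderophores, rose by 0.70. The zinc and iron importer SLC39A14 fell by 0.28. Transferrin itself, TF, named after its values were seen, was scarce, at 22 and 21 counts with control siRNA against 4 and 9 with the siRNA to SBF2-AS1 (log2 -1.61, edgeR adjusted p = 0.00927), and did not pass without control 1 (0.0692) or without Knockdown-670 (0.121).

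Storage moved in the mRNA of its heavy chain but not detectably in that of its light chain. FTH1 was at 732.5 and 862 CPM in controls 1 and 2 and at 1654 and 1242 CPM in Knockdown-670 and Knockdown-732. Both knockdown libraries were above both controls, and they differed from each other by more than the controls did. The fitted log2 change was 0.86 with an SE of 0.16 (edgeR adjusted p = 0.0103), 1.82-fold. That call was lost without control 1 (log2 0.74, adjusted p = 0.131) and without control 2 (0.98, adjusted p = 0.0935).

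FTL was at 8059 and 8200 CPM in the controls and at 8164 and 7325 CPM in the knockdown. Knockdown-670 lay between the controls, and Knockdown-732 was the lowest. The log2 fold change was -0.07 (95% interval -0.23 to 0.09, edgeR adjusted p = 0.468). FTL alone took 0.721 to 0.839% of all counts in a library.

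The counts of FTH1 per count of FTL were 0.0909 and 0.105 in the controls and 0.203 and 0.170 in Knockdown-670 and Knockdown-732. FTH1 thus made up 8.33 and 9.51% of the counts of both chains in the controls, against 16.8 and 14.5% in the knockdown. The ratio did not overlap between the groups, with an exact two-sided permutation p of 0.333, the smallest that 2 libraries against 2 can give.

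Both ferritin genes have many processed pseudogene copies, and reads of a gene and its copies may have been split between symbols. The table lists 24 FTH1P copies, 17 of them with a count, which held 32.5 to 36.1% of the counts of FTH1 and its copies together. Of 14 copies tested 8 rose and 6 did not pass; FTH1P7 rose by 0.90 and FTH1P2 by 1.1 on the log2 scale, the latter not passing without control 1 (edgeR adjusted p = 0.0612) or control 2 (0.0516). Of 19 FTLP copies 8 had a count, together 23.2 to 27.8% of the FTL total, nearly all of it FTLP3. FTLP2 fell by 0.66, and FTLP3 was at -0.18 (edgeR adjusted p = 0.128; -0.34 and 0.000321 without control 2, 0.0383 with library size only and 0.0273 with no filter).

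With the copies summed into their parent genes, FTH1 was at 1134 and 1277 CPM in the controls and at 2500 and 1944 CPM in Knockdown-670 and Knockdown-732. The summed FTH1 rose by 0.88 on the log2 scale (SE 0.12, edgeR adjusted p = 0.000289), and the value for the summed FTL was -0.10 (edgeR adjusted p = 0.288). FTH1 with its copies made up 9.22 and 10.7% of the counts of both families in the controls, against 19.0 and 16.7% in the knockdown. Adding the counts listed under the copies thus did not change which chain passed. How reads that match several symbols were counted is not stated, and the sum cannot restore any that were left out.

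**Figure D3:**
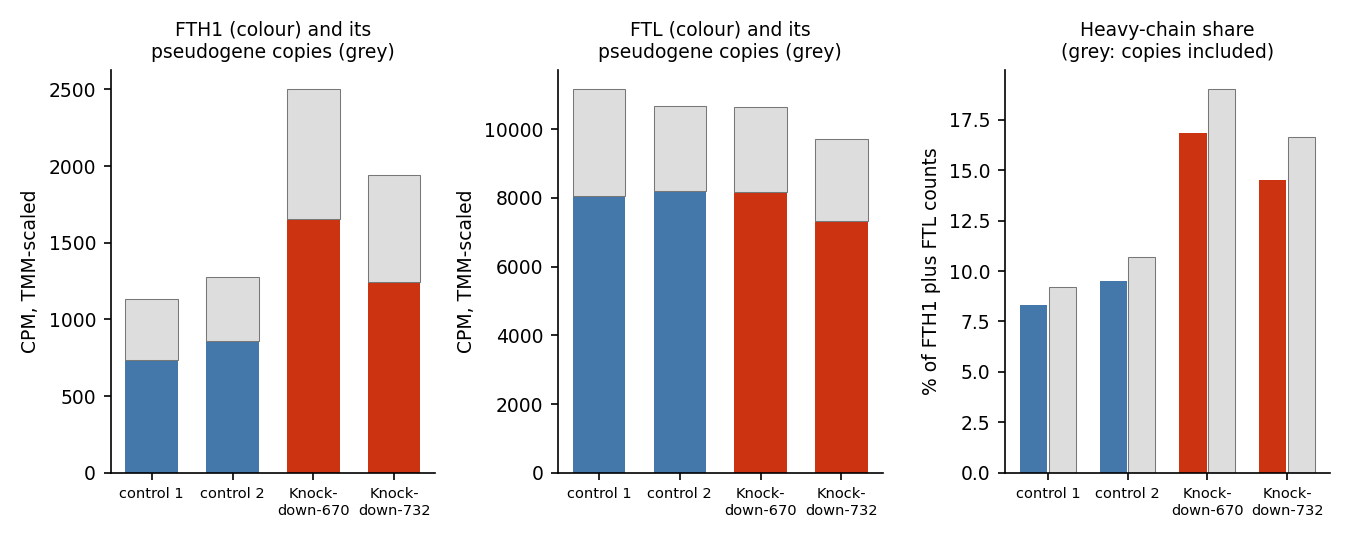
Left and middle, TMM-scaled CPM of FTH1 and FTL in each library (blue, control; red, knockdown) with their pseudogene copies stacked in grey. Right, the share of FTH1 in the counts of FTH1 plus FTL, without copies (colour) and with them (grey): 8.33 to 10.7% in the controls and 14.5 to 19.0% in the knockdown.

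NCOA4, the receptor that delivers ferritin to lysosomes, was at 134 and 129 CPM in controls 1 and 2 and at 162 and 162 CPM in Knockdown-670 and Knockdown-732. The knockdown libraries were nearly equal and both above the controls (log2 0.30, SE 0.07, edgeR adjusted p = 0.0016). HERC2, a ubiquitin ligase that acts on NCOA4, was at 0.18 on the log2 scale (edgeR adjusted p = 0.0340), and did not pass when any 1 of the 4 libraries was left out (0.0631 to 0.154), with library size only (0.165) or in DESeq2 (0.0805).

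The exporter was the 1 gene of the 10 that fell, and the scarcest. SLC40A1 was counted 79 and 95 times in controls 1 and 2, and 36 and 41 times in Knockdown-670 and Knockdown-732. In CPM it was at 6.11 and 7.18 in the controls, against 3.06 and 3.23 in the knockdown. Counting error alone (exact Poisson, 95%) spanned 4.84 to 7.61 CPM for control 1 and 5.81 to 8.78 CPM for control 2. It spanned 2.14 to 4.23 CPM for Knockdown-670 and 2.32 to 4.38 CPM for Knockdown-732, below both controls. The fitted log2 change was -1.08 with an SE of 0.23 (95% interval -1.55 to -0.60, edgeR adjusted p = 0.000741).

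Of 11 further genes of storage, export and the hepcidin axis, 5 were tested, of which 3 rose and 1 fell (median log2 fold change 0.18). PCBP1, a chaperone that delivers iron to ferritin, went from 248 ± 2.93 to 318 ± 30.9 CPM (mean ± SD of 2 libraries each; log2 0.36, edgeR adjusted p = 0.000572), and BMP6, a ligand known for inducing hepcidin in liver, rose by 0.58. CP (ceruloplasmin), a ferroxidase that works with ferroportin, fell by 0.28 (edgeR adjusted p = 0.00476), and did not pass without Knockdown-670 (-0.20, 0.0847). Hepcidin itself (HAMP) had 0 counts in all libraries.

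The mRNAs of both iron regulatory proteins rose slightly, and the smaller change was not stable. ACO1 was at 119 and 117 CPM in controls 1 and 2 and at 142 and 148 CPM in Knockdown-670 and Knockdown-732. The groups were apart by more than the spread within either (log2 0.30, SE 0.07, edgeR adjusted p = 0.00201). IREB2 was at 105 and 108 CPM in the controls and at 116 and 133 CPM in the knockdown. Both knockdown libraries were above the controls, Knockdown-732 by more (log2 0.23, SE 0.08, edgeR adjusted p = 0.0239). The IREB2 call was lost without Knockdown-732 (log2 0.11, adjusted p = 0.417), without control 1 (0.20, 0.093), with library size only (0.17, 0.104) and in DESeq2 (0.23, 0.0784).

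FBXL5, the ubiquitin ligase subunit that removes IREB2 protein when iron is ample, stood at 0.10 on the log2 scale (edgeR adjusted p = 0.352). It is 1 of 6 listed genes of IRP control and other mRNAs known for the hairpin, of which 5 were tested, 1 rose and 3 fell (median log2 fold change -0.19). EPAS1, a hypoxia-inducible factor known for such an element in its 5′ UTR that the letters searched here did not find, went from 402 ± 8.79 to 667 ± 15.9 CPM (mean ± SD of 2 libraries each; log2 0.73, edgeR adjusted p = 5.78e-08). The phosphatase CDC14A fell by 0.77. The 3 that fell became 1 without control 1, and 0 without Knockdown-732 and in DESeq2, where CDC14A did not pass (adjusted p = 0.0855 in edgeR and 0.0661 in DESeq2).

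Set by hairpin position, the 3 genes with a perfect match in the 5′ UTR each did something else: FTH1 rose (log2 0.86), SLC40A1 fell (-1.08) and FTL did not pass (-0.07). TFRC, which alone of the 10 had perfect 3′ UTR matches, did not pass (0.10). Of the 3 genes with a 3′ UTR match that had 1 unpaired position, ACO1 (0.30) and IREB2 (0.23) rose and SLC11A2 did not pass (-0.07). The counts of TFRC per count of FTH1 were 0.305 and 0.252 in controls 1 and 2 and 0.135 and 0.1997 in Knockdown-670 and Knockdown-732, with an exact two-sided permutation p of 0.333, the smallest possible here. These are mRNA levels, and translation was not measured.

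HMOX1, which opens the heme ring and releases iron, carbon monoxide and biliverdin, was at 150 and 155 CPM in controls 1 and 2 and at 251 and 261 CPM in Knockdown-670 and Knockdown-732. Both knockdown libraries were far above both controls, and the libraries of each group lay close together. The fitted log2 change was 0.75 with an SE of 0.07 (95% interval 0.61 to 0.89, edgeR adjusted p = 5.57e-08), 1.68-fold. The constitutive enzyme HMOX2 went from 29.9 ± 3.29 to 36.3 ± 3.19 CPM (mean ± SD of 2 libraries each; log2 0.28, edgeR adjusted p = 0.0509), and passed without control 1 (0.0241) or Knockdown-732 (0.0250), with upper-quartile scaling (0.0430), with no filter (0.0403), with the 5 CPM filter (0.0379) and with the ferritin copies summed (0.0499). The biliverdin reductases did not pass, with log2 fold changes of -0.13 for BLVRA and 0.05 for BLVRB.

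HMOX1 is known to be induced by NRF2 (NFE2L2) with small MAF partners and held down by BACH1, and KEAP1 marks NRF2 for decay. Of 7 genes listed for this control 2 rose and 2 fell (median log2 fold change 0.06). The repressor BACH1 rose from 43.4 ± 0.157 to 65.9 ± 1.20 CPM (mean ± SD of 2 libraries each; log2 0.60, edgeR adjusted p = 1.1e-05), and the partner MAFG rose by 0.38. KEAP1 fell by 0.38 and NFE2L2 by 0.21 (edgeR adjusted p = 0.018); NFE2L2 did not pass without control 2 (0.0913) or Knockdown-670 (0.0900), or in DESeq2 (0.0554). NRF2 is controlled largely through protein stability, which these counts do not measure.

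Heme synthesis is the route that consumes iron at its last step. Of its 10 genes 2 rose and 4 fell (median log2 fold change -0.02). FECH, ferrochelatase, which inserts iron into the ring, went from 52.3 ± 3.65 to 24.2 ± 1.72 CPM (mean ± SD of 2 libraries each; log2 -1.11, SE 0.10, edgeR adjusted p = 7.67e-08). ALAD fell by 0.57, and ALAS1, the rate-limiting enzyme outside red cells, was at -0.09 on the log2 scale (edgeR adjusted p = 0.382). TMEM14C, a mitochondrial carrier in heme synthesis, rose by 0.41. The 2 that rose became 1 without control 2, without Knockdown-670, without Knockdown-732, with library size only and in DESeq2.

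**Figure D4:**
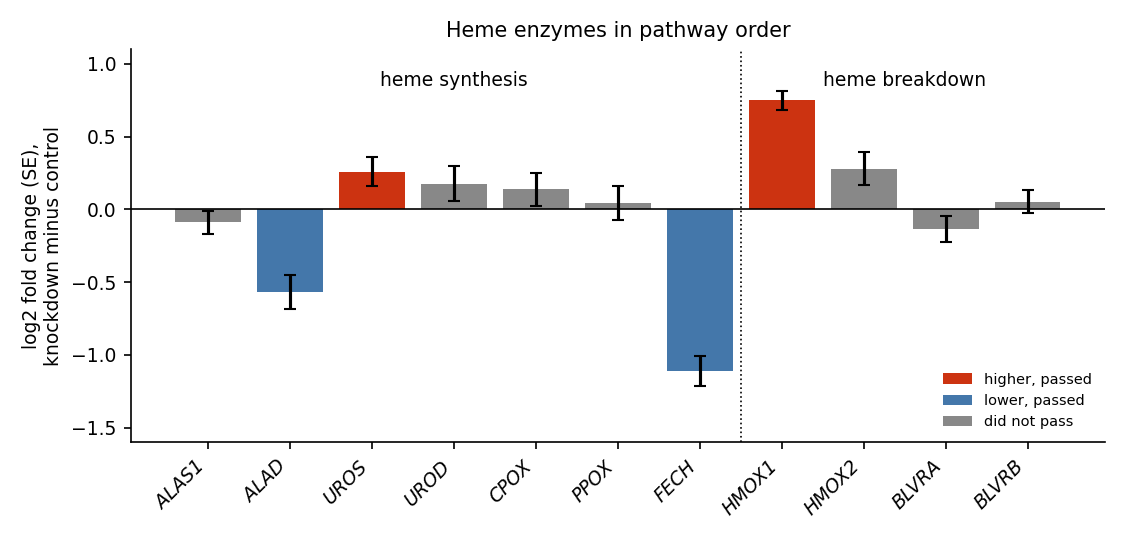
Log2 fold change (knockdown minus control, bars; SE, whiskers) of enzymes of heme synthesis in pathway order and of the enzymes of heme breakdown, coloured by edgeR's call. FECH stands at -1.11 and HMOX1 at 0.75.

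Among 11 genes of heme transport and breakdown other than HMOX1, 1 rose and 4 fell (median log2 fold change 0.02). The exporter ABCG2, which carries porphyrins among other substrates, went from 77.5 ± 5.03 to 38.8 ± 3.09 CPM (mean ± SD of 2 libraries each; log2 -0.998, edgeR adjusted p = 5.11e-08). SLC48A1, the endosomal heme transporter, fell by 0.47 and the heme-binding protein PGRMC2 by 0.43. The 1 that rose was POR, the reductase that supplies electrons to heme oxygenase (log2 0.22, edgeR adjusted p = 0.0130). This count became 0 without control 2, without Knockdown-670 and with library size only, where POR did not pass. It became 2 without control 1, without Knockdown-732, with upper-quartile scaling, with either other filter and with the ferritin copies summed.

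Of 19 genes of mitochondrial iron and iron-sulfur assembly 3 rose and 8 fell (median log2 fold change -0.20). The mitoferrins, which import iron into mitochondria, rose: SLC25A37 went from 141 ± 1.73 to 270 ± 8.57 CPM (mean ± SD of 2 libraries each; log2 0.93, edgeR adjusted p = 3.11e-09) and SLC25A28 rose by 0.49. The third was FDXR, which reduces ferredoxin (0.26), which did not pass without Knockdown-732 (0.18, edgeR adjusted p = 0.178), with library size only (0.0563) or in DESeq2 (0.0548). Genes of iron-sulfur cluster assembly were among the 8 that fell, with NFU1 at -0.55 and the ferredoxin FDX1 at -0.58. The 8 became 5 without control 1 and in DESeq2, and 4 without Knockdown-670. Of 11 genes of cytosolic cluster assembly 2 rose and 1 fell (median log2 fold change -0.08): FAM96B rose by 0.39, GLRX3 by 0.23 and CIAPIN1 fell by 0.61. GLRX3 did not pass without control 2 (edgeR adjusted p = 0.272) or Knockdown-732 (0.145), with library size only (0.105) or in DESeq2 (0.103). The 1 that fell became 2 without control 1, without Knockdown-670 and with no filter, and 3 with library size only.

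**Figure D5:**
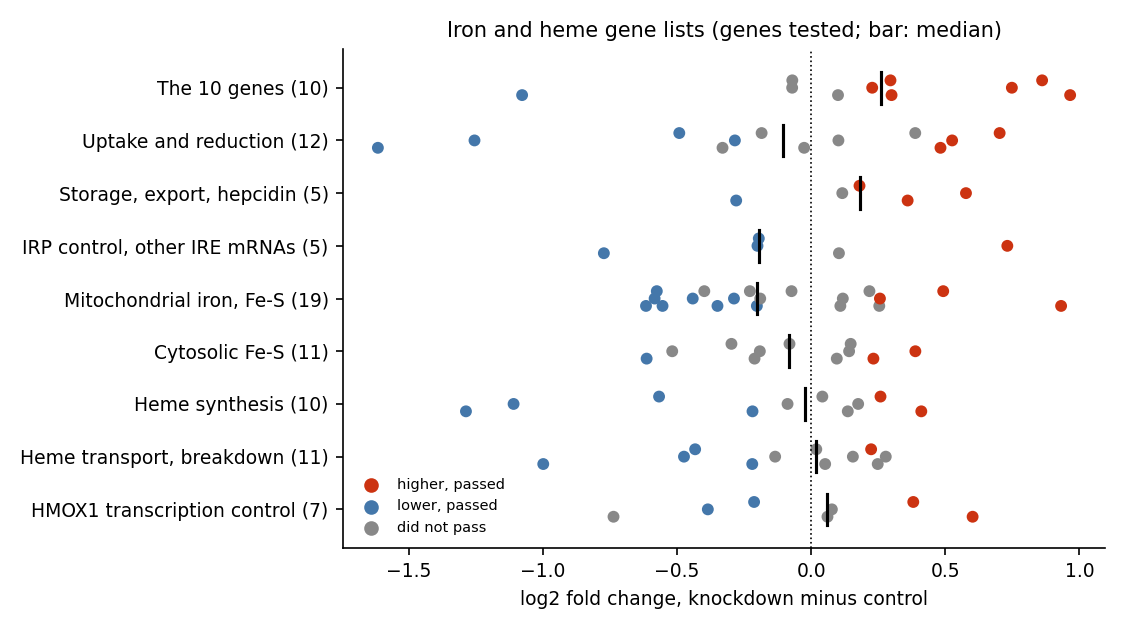
Log2 fold change (knockdown minus control) of each tested gene in the 10 iron genes and in 8 lists of iron and heme genes, with the number tested in parentheses and a bar at the median. Medians lie between -0.20 and 0.26, and each list holds genes that passed in both directions.

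Over the 8 lists together 80 of 89 genes were tested, of which 17 rose, 27 fell and 36 did not pass. The 55% that passed stand beside 46.3% of all genes tested, and the median log2 fold change was -0.08.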

How the data were processed

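RNA was sequenced from 4 A549 libraries on the Ion Proton, per the labels' protocols. Raw counts by gene symbol were deposited as a single table. The submitters' processing notes name GRCh37; for the aligner, counter, annotation and strand setting nothing is given in the sources used here. All 40205 symbols named a gene, and 14572 had no count. Libraries of a group differed by more than counting noise, so none was a copy. Chi-square per gene was 3.72 between controls and 3.42 between knockdown libraries, over genes with at least 10 counts in the pair.

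The knockdown was set against the controls in R 4.3.3 by edgeR 4.0.16, with TMM scaling, the filterByExpr filter and a robust quasi-likelihood fit. Calls used a Benjamini-Hochberg adjusted p under 0.05 over all genes tested. The spread between libraries of a group was a biological coefficient of variation of 6.64%. SE is the log2 fold change over the root of the F statistic. Scripts were tested on simulated data. Marker sums use CPM by library size. Coordinates and hairpins come from GENCODE 29 (GRCh38), joined by symbol, not from the build of the counts. The genes and lists were chosen with earlier results of these data known. Named from each list were up to 3 called genes of smallest p with at least 5 CPM, and genes that a statement on the 10 turns on; HERC2, TF, POR, FDXR, SLC39A14, SLC25A28, CD68 and the ferritin copies were named after their values were seen. Alternatives were 3 other scalings, 2 other filters, each library left out, DESeq2 1.42.0, limma-voom (limma 3.58.1), a non-robust fit and, added after seeing the data, ferritin copies summed into their parents. Some listed genes that this rule names are left out of the text.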

Additional observations from a re-analysis of the deposited data

How the results depend on the processing

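Over 13 alternatives STEAP3 (log2 fold change 0.90 to 0.98), HMOX1 (0.69 to 0.77), NCOA4 (0.24 to 0.33), ACO1 (0.23 to 0.32) and SLC40A1 (-1.19 to -0.96) kept their direction and their call, and TFRC and FTL did not pass in any. FTH1 kept its direction (0.64 to 1.04) and its call in 11, losing the call without either control. IREB2 kept its direction and its call in 9. SLC11A2 passed in none; leaving out 1 library at a time gave -0.22 (without Knockdown-732) to 0.0501 (without Knockdown-670), the latter reversed. BLVRB, also without a call, was at -0.0114 with library size only and ranged from -0.0702 to 0.153 (without Knockdown-670 and Knockdown-732) against 0.05. The count of the 10 genes that passed ran from 5 to 7, and the count over all genes from 5311 in DESeq2 to 7733 with no filter, against 7463. Library size only moved the median of all genes to -0.07. No paired analysis was possible because the control and knockdown labels share no replicate numbers. Leaving out a library leaves a group with 1 sample, which is assumed to vary like the other group. SLC40A1, with 36 to 95 counts, had the fewest counts of the 10 genes.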

Other observations

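The genes whose pattern was most like that of STEAP3, the iron gene with the largest change among those that passed with a mean of at least 5 CPM, were SLC17A5, MARCH9 and SFRP1. Likeness was the Euclidean distance in log2 CPM relative to the control mean over the 4 libraries, among 11896 genes, of which 188 lay within 0.2. SLC17A5, the lysosomal sialic acid exporter, went from 16.1 ± 0.313 to 31.5 ± 0.452 CPM, the ubiquitin ligase MARCH9 from 16.2 ± 0.315 to 32.1 ± 0.538 CPM, and SFRP1, a secreted WNT antagonist, from 39.4 ± 0.417 to 77.6 ± 1.04 CPM (SD, n = 2 each). With 4 libraries such a ranking describes these libraries only.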
